A study of Mus musculus with 2 samples.

Results

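The genes of the AP-1 transcription factor family were examined for Notch1 binding in gamma delta T cells, a T cell lineage named after the chains of its receptor. The 9 members were Jun, Junb, Jund, Fos, Fosb, Fosl1, Fosl2, Batf and Batf3, out of 21938 protein-coding genes of the GENCODE M21 annotation on mouse build mm10. A Notch1 peak was given to a member if it overlapped the gene body or lay within 50 kb of any annotated start site, and 24 of the 5913 peaks in the list met this rule. Each of the 24 peaks fell to 1 member only. The peaks come from chromatin immunoprecipitation followed by sequencing (ChIP-seq) with a rabbit monoclonal antibody (clone D1E11) against Notch1. The mice were C57BL/6, wild type and 0 to 3 days old, and primary gamma delta T cells were taken from their thymus. The study made 1 library with the antibody and 1 from input chromatin without antibody, from the same kind of cells, in order to find the binding sites of the intracellular part of Notch1 (ICN1). With 1 Notch1 library and no input values analysed here, there was no replicate and no test between groups, and every count below describes this library. A peak list holds no expression, so the labelled cell type could not be checked against marker transcripts. The read depth behind the peaks is unknown from the file used.

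AP-1 is a dimer of basic leucine zipper proteins. Jun proteins pair with one another or with Fos proteins, while Fos proteins need a Jun partner. Batf and Batf3 also pair with Jun proteins and can bind together with IRF factors. The dimers bind the short palindrome-like sequence TGANTCA, most often TGACTCA, and in T cells they act downstream of the antigen receptor, often beside NFAT. Several family genes are immediate early genes, which are switched on within minutes of a stimulus without new protein synthesis. Notch1 does not bind DNA itself. Its cleaved intracellular domain is held on DNA by RBPJ, whose core sequence is TGGGAA.

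Of the 9 members 7 had at least 1 peak under the 50 kb rule, compared with 31.7% of all protein-coding genes. Among the 13617 genes whose window was no longer than the longest window of a member (111 kb), 26.8% had one. Junb had 8 peaks, Fos and Fosb had 5 each, Fosl2 had 3, and Jund, Fosl1 and Batf3 had 1 each. Jun and Batf had none. At least 5 peaks were found at 3 of the 9 members, compared with 0.597% of all protein-coding genes. A peak within 1 kb of a start site was found at 5 of the 9 members (Junb, Jund, Fos, Fosl1 and Fosl2), compared with 5.16% of all protein-coding genes. At Jund this holds for the GENCODE start site but not for the RefSeq one. The same 5 members had a peak within 5 kb, compared with 8.81% of all protein-coding genes. The median over the members was 1 peak, and the median over all protein-coding genes was 0. Neighbouring genes share peaks, so genes are not independent observations and these shares carry no test.

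**Figure D1:**
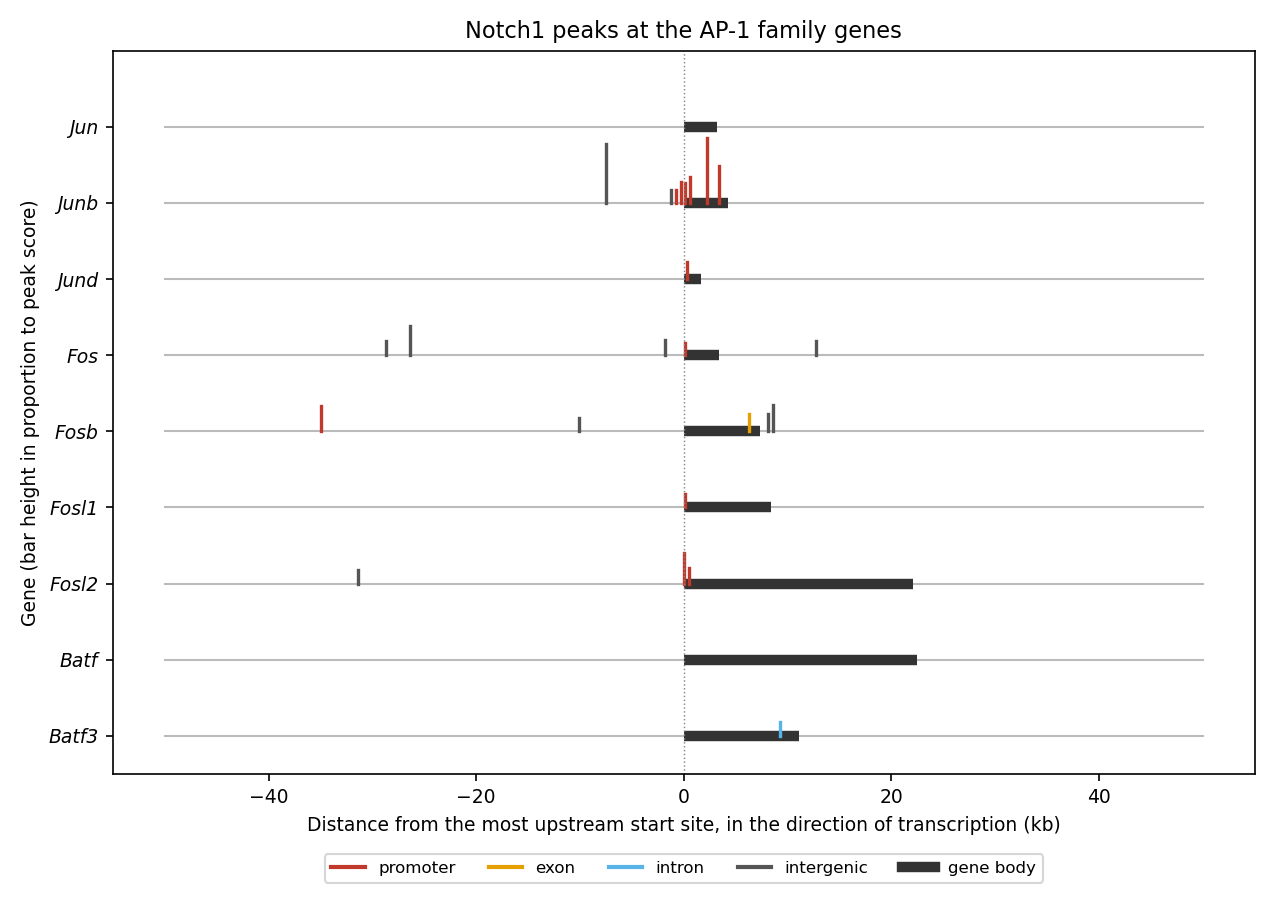
Position and score of the 24 Notch1 peaks at the 9 AP-1 family genes. The horizontal axis gives the distance in kb from the most upstream start site, read in the direction of transcription, and each vertical bar is 1 peak, as tall as its score and coloured by its class. Junb holds 8 peaks close to its body, Fos and Fosb hold 5 each that are more widely spaced, and Jun and Batf hold none.

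Membership near the 50 kb limit was not dense. The outermost peak inside it lay 34.7 kb from a start site of Fosb. The first peaks beyond it lay 53.8 kb from Batf (score 671) and 55.6 kb from Jund (score 652). Of the 24 peaks 19 lay within 10 kb of a start site of their member, and 6 covered one. For 21 of the 24 the nearest start site of any protein-coding gene was that of the member. The exceptions were 1 peak each at Junb (nearer to Hook2), Fosb (covering a start site of Ercc1) and Fosl2 (nearer to Babam2).

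**Figure D2:**
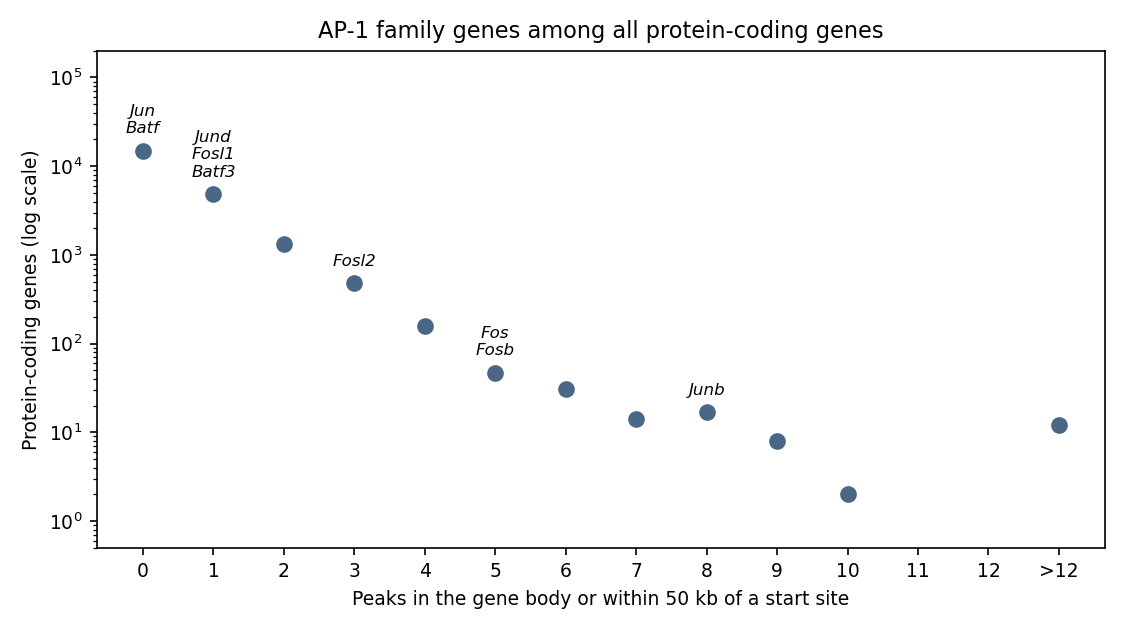
Number of protein-coding genes (vertical axis, log scale) by the number of Notch1 peaks in the gene body or within 50 kb of a start site (horizontal axis), with the names of the AP-1 family genes above the point they belong to. Junb stands among the 39 genes with at least 8 peaks, and Jun and Batf stand among the genes with none.

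The Jun group encodes the partners that every Fos protein needs. Junb, on chromosome 8 from 84974484 to 84978718 on the minus strand, is an immediate early gene with roles in T helper cell differentiation. With peaks as listed, it had more than any other member. That lead depends on how close peaks were split. After joining peaks within 1 kb of each other, Junb had 2 regions, compared with 5 at Fos and 4 at Fosb. The Junb counts below are of peaks as listed. At least 8 peaks were found at 39 genes, or 0.178% of all protein-coding genes. Of the other 38 genes, 8 are neighbours of Junb whose windows hold the same 8 peaks, namely Asna1, Best2, Gm49661, Hook2, Mast1, Prdx2, Rnaseh2a and Rtbdn. A further 9 of the 38 had 25 peaks each. Of the Junb peaks 7 formed a run of 5158 bp over the gene and the sequence just before it. No other run of 7 peaks on the nuclear chromosomes was as short, but the length of 7 was taken from the Junb run itself. The next, on chromosome 9 from 3000770 to 3006058, spanned 5289 bp and was 96.2% soft-masked repeat sequence, compared with 11.4% in the run at Junb.

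From the 5′ side, the run began with a peak of score 644 whose near edge lay 1.08 kb upstream of the coding start site. It continued with a peak of score 625 at 513 bp upstream and with one of score 995 at 213 bp upstream. A peak of score 936 covered the start site, and a peak of score 1266 lay wholly in coding sequence, with 4 bases between these peaks. The highest score was 3100, in a peak of 1052 bp from 84975986 to 84977037. That peak took in the last 128 bases of the 3′ untranslated region of the coding transcript, the start of a second, processed transcript at 84976542 and the sequence between them. A peak of score 1760 lay farther downstream, over that processed transcript. Peaks thus covered 62.6% of the annotated Junb gene body, a share reached by 7 protein-coding genes (0.0319%), Junb included. The others were Sfi1, 4930519P11Rik, Gm10722, Gm10800, Gm10801 and Gm21738. Within 1 kb of an annotated start site Junb had 6 peaks, a number reached otherwise only by Sfi1, Gm10717 and Gm11168 among all protein-coding genes. By the 50 kb rule Sfi1 had 43 peaks, and Gm10717 and Gm11168 had 25 each. With start sites of coding transcripts alone Junb had 4, since the peaks of score 3100 and 1760 lie within 1 kb of the processed transcript's start only.

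**Figure D3:**
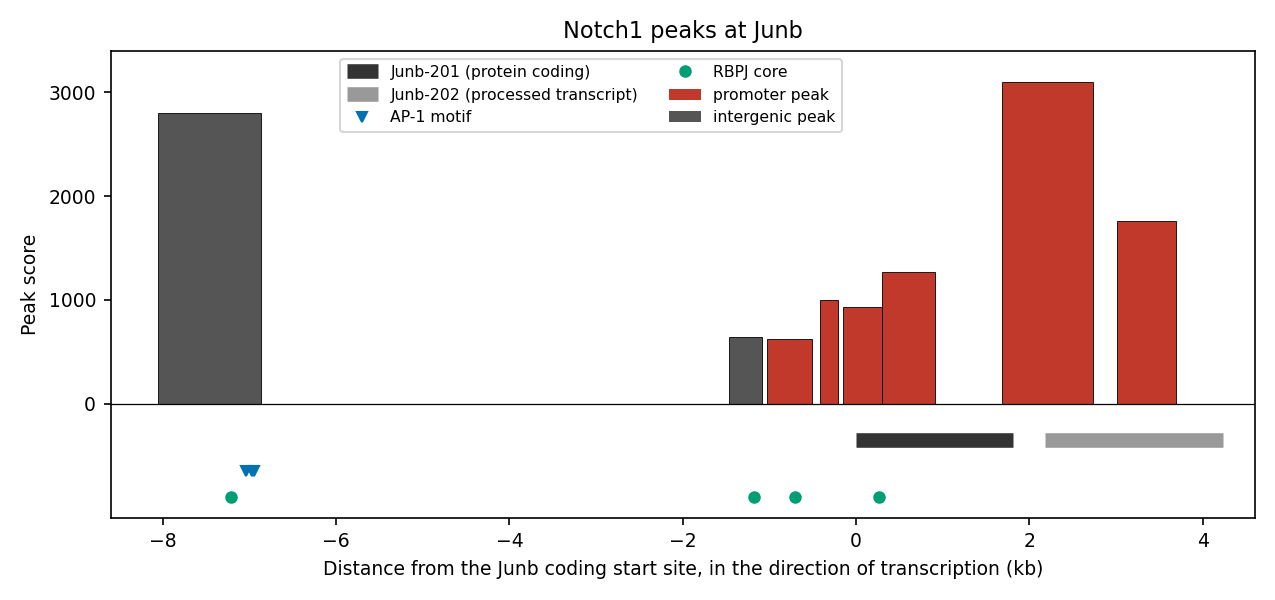
Notch1 peaks at Junb, with the distance from the coding start site in kb in the direction of transcription (horizontal axis) and the peak score (vertical axis). Each box is 1 peak drawn to its width, dark and grey bars under the zero line are the coding and the processed transcript, and symbols mark AP-1 motifs and RBPJ cores inside peaks. The scores are highest at 3100 past the end of the coding transcript and at 2804 upstream, where the 3 AP-1 motifs lie.

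The 8th Junb peak stood apart from the run, 5404 bases farther upstream. It spanned 1183 bp from 84985587 to 84986769 in intergenic sequence, 6.87 kb from the Junb start site and 3.83 kb from that of Hook2, which encodes a microtubule adaptor protein. Its score of 2804 ranked 49th in the list. It held 3 copies of the AP-1 motif TGACTCA within 101 bases, all in the same orientation. At least 3 copies were found in 3 of the 5910 nuclear peaks (0.0508%). Of the 44 nuclear peaks wider than 1 kb, 10 held the motif and 1, the Junb peak, held at least 3 copies. The stretch that carries these motifs is printed on the strand of Junb. All sequences of peaks come from the GRCm38.p6 assembly of build mm10, each on the strand named beside it. Capitals mark the AP-1 motifs and the single RBPJ core of the peak. After it stand the RBPJ cores of the 2 peaks of the run that lie farthest upstream, on the plus strand. The peak over the coding start site held a further core.
Junb upstream peak, chr8:84985647-84985942, minus strand: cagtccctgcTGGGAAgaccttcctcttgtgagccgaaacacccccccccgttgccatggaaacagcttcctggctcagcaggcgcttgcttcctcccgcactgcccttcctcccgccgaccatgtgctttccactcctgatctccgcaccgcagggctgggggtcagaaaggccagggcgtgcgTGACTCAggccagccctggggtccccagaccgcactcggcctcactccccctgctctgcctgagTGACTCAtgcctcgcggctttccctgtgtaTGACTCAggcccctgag
Junb, 1.08 kb upstream peak, chr8:84979865-84979924, plus strand: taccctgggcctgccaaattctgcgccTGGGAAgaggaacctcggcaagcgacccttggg
Junb, 513 bp upstream peak, chr8:84979389-84979448, plus strand: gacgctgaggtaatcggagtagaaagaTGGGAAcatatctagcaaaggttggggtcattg
In the upstream peak 23 and 57 bases separated the 3 AP-1 motifs from one another, and 169 bases separated the nearest of them from the RBPJ core. All 3 lay in the part of the peak that faces Junb, at -518, -488 and -424 bp from its centre in coordinate order. The 2 peaks of highest score inside the run held no AP-1 motif and no RBPJ core.

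Jund, which encodes a broadly expressed Jun protein, had 1 peak, on chromosome 8 from 70699141 to 70699415 (score 821). It lay wholly in coding sequence, 192 bp from the annotated start site, and covered 16.5% of the gene body. These values rest on the GENCODE start site at 70698949. The RefSeq promoter lies farther upstream, from 70697489 to 70697788. Measured from the RefSeq start, the peak would not count as within 1 kb. With 70.9% GC and a CpG ratio of 0.955 (observed over expected) it was the most GC-rich of the 24 peaks. The gene is intronless and short, and 5 other protein-coding genes have a start site in its window.

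Jun, the founding member and the most studied Jun gene, had no peak in its window of 100 kb, which holds no start site of another protein-coding gene. The nearest peak lay 143 kb upstream (chromosome 4, 95194915 to 95195218, score 745), and Jun was still the protein-coding gene with the closest start site. Thus Junb had 8 peaks, Jund had 1 and Jun had none, in windows of about the same length.

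The Fos group encodes proteins that bind DNA only with a Jun partner. Fos, on chromosome 12 from 85473890 to 85477273, is the prototype immediate early gene. No other protein-coding gene has a start site in its window, which held 5 peaks. The peak over the Fos start site had the lowest score of the 24, at 586, and covered the first 141 bases of coding sequence under it. The highest Fos score, 1422, belonged to an intergenic peak 26.2 kb upstream (85447357 to 85447737), which ranked 311th in the list. A second far upstream peak lay 28.6 kb away (score 691), a near upstream peak 1.69 kb away (746) and a downstream peak 11.5 kb from the nearest start site (689). The core of RBPJ was present once in 3 of these 5 peaks, and the AP-1 motif in 0. The sequences around the 3 cores are given because they place the RBPJ core in the peak, and capitals mark it.
Fos, 28.6 kb upstream peak, chr12:85445151-85445210, minus strand: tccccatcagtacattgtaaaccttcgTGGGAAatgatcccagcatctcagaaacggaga
Fos, 1.69 kb upstream peak, chr12:85471933-85471992, minus strand: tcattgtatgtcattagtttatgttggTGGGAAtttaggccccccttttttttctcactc
Fos, downstream peak, chr12:85486497-85486556, plus strand: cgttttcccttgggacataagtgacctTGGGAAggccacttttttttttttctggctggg
The core of the farthest upstream peak lay 2 bp from the centre of that peak. It was part of the longer form CGTGGGAA, which was searched for only after the sequence had been seen. This form was found in 1 of the 24 peaks and in 56 of the 5910 nuclear peaks (0.948%, Wilson 95% interval 0.730 to 1.23). The form GTGGGAA was found in 2 of the 24 peaks, both at Fos, and in 7.68% of nuclear peaks (7.03 to 8.39). The form TGTGGGAA was found in 0 of the 24 peaks and in 2.74% of nuclear peaks (2.35 to 3.19).

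Fosb, on chromosome 7 from 19302696 to 19310051, is a second immediate early gene of the Fos group. It had 5 peaks but none within 1 kb of a start site. On its 3′ side 3 of them lay close together. A peak of score 819 lay in the 3′ untranslated region, and peaks of score 827 and 1252 lay just past the end of the gene, 142 bases apart from each other. For these 3 peaks the nearest start site of any gene was that of the noncoding gene Gm26802. It lay 499 bp from the peak of score 1252 and 1009 bp from that of score 827. Upstream, a peak of score 629 lay 9.84 kb away in the noncoding gene D830036C21Rik. The 5th peak (score 1218) covered a start site of the DNA repair gene Ercc1, 34.7 kb from Fosb. The window of Fosb holds start sites of 6 other protein-coding genes. Fosb thus had as many peaks as Fos, but its nearest one lay 5.60 kb from a start site.

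Fosl1 and Fosl2 encode Fra-1 and Fra-2, Fos-related proteins that lack the strong activation domain of Fos. Fosl1 had 1 peak, over its start site (chromosome 19, 5447464 to 5447852, score 666), with 1 RBPJ core 33 bp upstream of the first start site. Fosl2 had 3 peaks, 2 of them over GENCODE start sites and 66 bases apart. The first, from 32135570 to 32136051 on chromosome 5, scored 1484 and ranked 266th in the list. The second scored 723 and covered only the start of a retained-intron transcript, at 32136173. The third (score 656) lay 31.2 kb upstream and 24.5 kb from a start site of Babam2. The AP-1 motif was found in 2 of the 3 Fosl2 peaks, 1 copy each. In the promoter peak it began 53 bp downstream of the first GENCODE start site, in the annotated 5′ untranslated region. The RefSeq promoter lies farther downstream, from 32136222 to 32136521, so by RefSeq this motif is upstream of the start. Both motifs are shown in capitals.
Fosl2 promoter peak, chr5:32135843-32135872, plus strand: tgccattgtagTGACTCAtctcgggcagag
Fosl2, 31.2 kb upstream peak, chr5:32104213-32104254, minus strand: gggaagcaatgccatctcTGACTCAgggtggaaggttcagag
The 4 Fos group genes each had a peak, with highest scores of 1422 at Fos, 1252 at Fosb, 666 at Fosl1 and 1484 at Fosl2.

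Batf and Batf3 encode small family members without an activation domain. Batf is needed for the T helper cells that make interleukin 17A and Batf3 for cross-presenting dendritic cells. Batf had no peak in its window of 103 kb. The nearest 2 peaks were 53.8 and 61.8 kb away, and the closest protein-coding start site to both was that of Jdp2. Batf3 had 1 peak in an intron, on chromosome 1 from 191106982 to 191107294 (score 680), 6.50 kb from its nearest start site. Both the AP-1 motif and the RBPJ core occurred in it once, separated by 40 bases, and the AP-1 motif lay 3 bp from the peak centre. On the plus strand the AP-1 motif reads as its reverse complement TGAGTCA, and both motifs are in capitals.
Batf3 intronic peak, chr1:191107066-191107158, plus strand: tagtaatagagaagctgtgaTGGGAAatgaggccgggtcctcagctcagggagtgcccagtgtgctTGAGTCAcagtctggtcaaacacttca
Outside Junb, the Batf3 peak and the far upstream Fosl2 peak were the peaks that held both the AP-1 motif and the RBPJ core.

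The deposited score is the authors' own value, given without a stated unit, and was used only to rank peaks within the list. At the members it had a median of 820 (586 to 3100), compared with 718 over the whole list. Of the 24 peaks 15 were at or above the list median and 10 were in its upper quartile, from 904 upward. These 10 peaks belonged to 4 members, with 6 at Junb, 2 at Fosb and 1 each at Fos and Fosl2. The peaks of Jund, Fosl1 and Batf3 all scored below the upper quartile. The highest Junb score of exactly 3100 was shared by 38 peaks of the list, and 4 peaks scored above it. Peak widths had a median of 400 bp at the members, compared with 370 bp over the nuclear peaks.

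**Figure D4:**
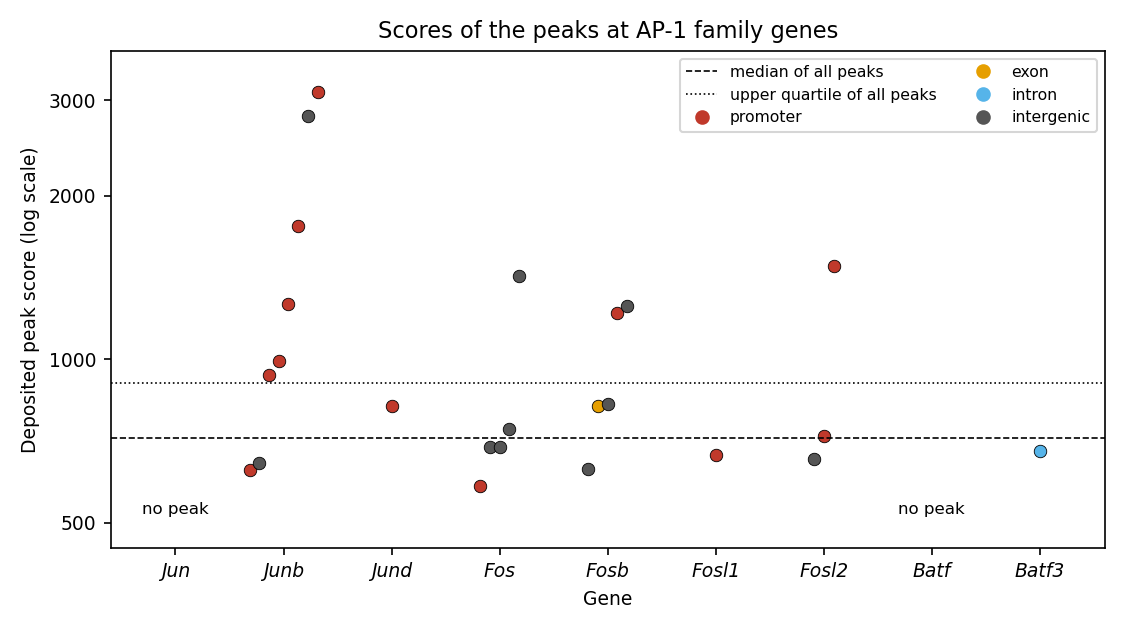
Deposited score (vertical axis, log scale) of each Notch1 peak by AP-1 family gene (horizontal axis), with 1 point per peak coloured by class. Lines mark the median (718) and the upper quartile (904) of the whole list. Junb has 6 points above the upper quartile, and the single peaks of Fosl1 and Batf3 lie below the median.

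Base composition was not used by the rule, but the rule chose peaks near genes. Over all nuclear peaks, GC content was higher at promoters than away from them, so the contrasts here follow the choice in part. The peaks of the members had a median of 56.9% GC (41.8 to 70.9), compared with 43.9% over all nuclear peaks. The CpG ratio had a median of 0.566, compared with 0.207. The rule chose peaks for their distance to a start site, so the share of promoter peaks, 12 of the 24 with 6 of them at Junb, is a description only. A peak was classed as promoter if it lay within 1 kb of any transcript start of a protein-coding gene, processed transcripts included. Within the promoter class the median GC was 62.4% at the members and 52.5% over all promoter peaks. Away from promoters it was 52.4% at the members and 42.4% over all such peaks, and 11 of the 12 member peaks lay above 42.4%. The rule kept these member peaks near a gene, while all such peaks had no limit on distance. The part of GC content in the counts of peaks was not tested. Soft-masked repeat sequence made up a median of 7.36% of a member peak, compared with 15.5% over nuclear peaks. Of the 24 peaks 22 were under 20% soft-masked, compared with 60.2% of nuclear peaks. In 23 of the 24 peaks every string of 32 bases occurred once in the chromosome sequences of the assembly. The exception was the peak at Ercc1 in the Fosb window, with 6.20% of its strings repeated.

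The motifs of AP-1 and of factors that work with Notch1 or in T cells were counted as present or absent on both strands. The AP-1 motif TGACTCA was found in 4 of the 24 peaks (16.7%, Wilson 95% interval 6.68 to 35.9), compared with 6.60% of nuclear peaks (5.99 to 7.26). These 4 peaks were the upstream peak of Junb, the promoter and far upstream peaks of Fosl2 and the intronic peak of Batf3. With any middle base (TGANTCA) they were the same 4, and 11.3% of nuclear peaks had that form. The related cyclic AMP response element TGACGTCA was found in 0 of the 24 (0 to 13.8), and in 1.10% of nuclear peaks. The RBPJ core TGGGAA was found in 11 of the 24 (45.8%, 27.9 to 64.9), compared with 29.5% of nuclear peaks (28.4 to 30.7). Within the promoter class it was in 4 of 12 member peaks, compared with 31.5% of all promoter peaks. Away from promoters it was in 7 of 12, compared with 29.0%. These 11 peaks were spread over 6 members, with 4 at Junb, 3 at Fos and 1 each at Fosb, Fosl1, Fosl2 and Batf3.

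The ETS motif CCGGAA was found in 4 peaks (16.7%), compared with 7.39% of nuclear peaks, with 3 of the 4 at Junb. The E-box CAGCTG was found in 6 of the 24, compared with 15.6% of nuclear peaks, and the TCF/LEF motif CTTTGA in 9 (37.5%), compared with 25.4%. The RUNX motif TGTGGT was found in 6 of the 24, compared with 26.9%. In the central 200 bp of each peak, or the whole peak where it was narrower, the AP-1 motif was found in 2 of the 24 and in 3.74% of nuclear peaks. The RBPJ core was found there in 7 of the 24 and in 1004 of the 5910 nuclear peaks. The ETS motif was found there in 4 and in 4.23% of nuclear peaks, the TCF/LEF motif in 4 and in 14.2%, and the RUNX motif in 3 and in 16.7%. The E-box was found there in 2 of the 24 and in 9.19% of nuclear peaks, so its share at the members was no longer the higher one. The intervals cover counting error only and treat peaks as independent, which peaks of 1 locus need not be. A matching string is not a bound site.

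**Figure D5:**
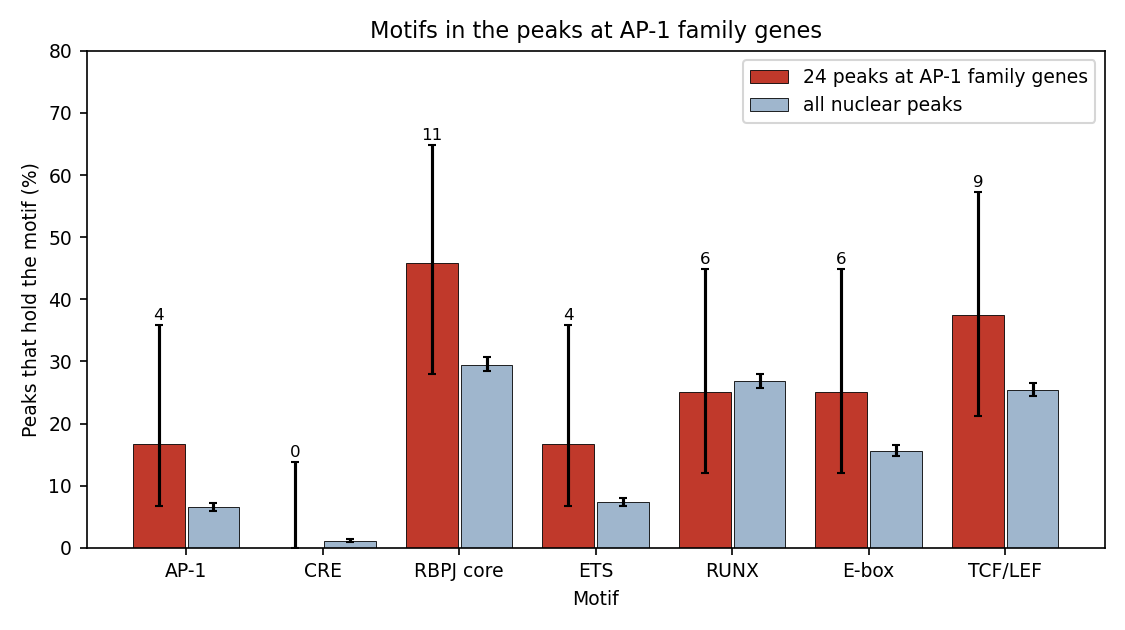
Share of peaks (vertical axis, in percent) that hold each motif (horizontal axis), for the 24 peaks at AP-1 family genes on the left of each pair and for all 5910 nuclear peaks on the right. Numbers give the member peaks with the motif and error bars are Wilson 95% intervals, which are wide for 24 peaks. The RBPJ core was found in 11 of the 24 and the AP-1 motif in 4.

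Promoter sequences of RefSeq (build GRCm38.p6, from 250 bases before to 50 after the start) were given for 8 of the 9 members. Those of Junb, Fos and Fosl2 were overlapped by peaks, over 240, 179 and 230 of their 300 bases in that order. The AP-1 motif was in 0 of the 8 promoters, compared with 5.20% of the 32851 promoters in the table. The RBPJ core was in 3 of the 8, those of Jun, Jund and Batf, compared with 25.6% of all promoters. None of these 3 promoter stretches was overlapped by a peak. The RefSeq promoter of Jund lies upstream of the GENCODE start site near which the Jund peak was found, and more than 1 kb from that peak. The 3 promoters overlapped by peaks had 65.3% GC (Junb), 58.7% (Fos) and 64.7% (Fosl2). Those without overlap had 60.0% (Jun), 46.7% (Jund), 68.3% (Fosb), 49.7% (Batf) and 75.7% (Batf3). In the same order, CpG ratios were 0.666, 0.775 and 1.03 with overlap, and 0.594, 0.184, 0.735, 0.487 and 0.914 without. The part of base composition was not tested.

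Other genes of the pathway were counted by the same rule. Of 19 other basic leucine zipper genes related to AP-1, 12 (63.2%) had a peak, compared with 31.7% of all protein-coding genes. Bach2, a repressor that competes for AP-1-like sites, had 10 peaks with a top score of 2348 in a window of 436 kb. Crem had 4 peaks (top score 817). Creb1 (1053), Nfe2 (884) and Atf3 (664) had 3 each, and Jdp2, which encodes a partner of Jun proteins, had 2 (671). Atf1, Atf7, Batf2, Mafk, Nfe2l1 and Bach1 had 1 each, with scores between 544 and 704.

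Among 23 kinases and factors that act upstream of AP-1, 12 (52.2%) had a peak, compared with 31.7% of all protein-coding genes. Several of these windows were longer than any of a member, such as 290 kb at Map3k5 and 158 kb at Map3k1. The highest scores were at Prkcq (1887), which encodes the T cell kinase PKC theta, at the MAP kinase pathway genes Map2k1 (1474) and Map3k1 (1035), and at Map3k5 (863). The Map2k1 peak lay 14.1 kb from the nearest Map2k1 start site, at the promoter of another protein-coding gene. Of the kinases that phosphorylate Jun, neither Mapk8 nor Mapk9 had a peak in its window. Among 7 genes for partners on DNA, 5 (71.4%) had a peak, compared with the same 31.7%, with the highest scores at Nfatc3 (852), Irf8 (851), Ets1 (782) and Runx1 (738). Nfatc1 and Nfatc2 had none. Among 8 T cell genes known to use AP-1 sites, 6 had a peak, again compared with 31.7%, with the highest scores at the death ligand gene Fasl (3100), Il2 (1308), the activation marker gene Cd69 (1112) and Il17a (1022). Il4 and Csf2 had none. Within 5 kb of a start site 16 of these 57 genes had a peak, compared with 8.81% of all protein-coding genes. Under the 50 kb rule 35 of the 57 had one, compared with 31.7%. These lists were drawn up with earlier results of the same data known, several windows are longer than those of the members, and no list was tested.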

How the data were processed

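Per the labels' protocols, cells were fixed in formaldehyde (0.5%) for 5 min, chromatin was sonicated and digested with enzyme, and libraries went through 18 PCR cycles. Per the submitters' processing notes, Bowtie 1.0.0, SAMtools 0.1.18 and build mm10 were used. The deposited file lists each peak with a score, and its peak names start with MACS, but the meaning of the score, the MACS version, any use of the input and the handling of duplicate reads were not given in the sources used here. PCR duplicates could raise a score and cannot be measured from a peak list.

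Positions were read as BED and are reported from 1. Peaks were set on GENCODE M21 start sites of all transcripts, with a minimum overlap of 1 bp and distances from the peak edge. Sequence came from the mm10 assembly (GRCm38.p6), read with pysam 0.24.0, and 0 peaks passed a chromosome end. The window, distance and motif code was tested on simulated data. Wilson intervals (95%) came from scipy 1.17.1. The members and the 4 gene lists (57 genes) were chosen with earlier results of these data known. Named were all members, genes nearest to their peaks, every related leucine zipper gene with a peak and up to 4 top-scoring genes of each other list. Genes outside this rule were named after their values were seen, namely those set beside Junb, those without a peak and those of the noncoding class. Alternatives changed the window, overlap, start sites, score threshold and motif search. The input library has no values analysed here.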

Additional observations from a re-analysis of the deposited data

How the results depend on the processing

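Of 41 alternative values for the counts of members, peaks, nearest start sites, motifs and listed genes, 30 stayed within 1.5 times the main value and 11 did not. The number of members with a peak stayed at 7 with windows of 5 and 20 kb plus the gene body and was 8 with 100 kb, 5 with scores from the median upward and 4 with scores of the upper quartile. The share of all protein-coding genes was not counted under these settings, so these numbers have no background beside them. The 24 peaks became 15 with a window of 5 kb plus the gene body, 15 with scores from the median upward and 10 with scores of the upper quartile. Joining peaks within 1 kb of each other left 16 regions, with 5 at Fos, 4 at Fosb and 2 at Junb. Leaving out Junb left 16 peaks at 6 members. Both settings were added after the data were seen. The median of 1 peak per member became 3 with a window of 100 kb and 0 in the upper quartile of score. Of the 21 peaks nearest to their member, 13 scored from the median upward and 8 in the upper quartile. The nearest start site was that of the member for 16 peaks when noncoding genes were included. Over the central 200 bp the AP-1 motif was in 2 peaks, against 4 over whole peaks, and the counts of the RBPJ core, E-box, TCF/LEF and RUNX motifs also moved by more than 1.5 times. Of the 35 listed genes with a peak, 16 had one within 5 kb and 10 in the upper quartile. No paired analysis was possible because the groups hold 1 library each and the input has no values here. With 1 library the spread between preparations is unknown, and with 24 peaks the interval of a motif share is wide.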
